A study of Mus musculus with 9 samples.

Results

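Collagens, laminins, nidogens, and perlecan build the extracellular matrix to which cells attach, and integrins are the cell surface receptors that hold on to it. The genes described here were taken by name from the deposited expression table: all collagen alpha chains, all laminin alpha, beta, and gamma chains, all integrin alpha and beta chains, and the nidogens Nid1 and Nid2, perlecan (Hspg2), fibronectin (Fn1), and Sparc. This gave 88 of 54532 listed genes, namely 44 collagen genes, 11 laminin genes, 18 integrin alpha genes, 10 genes with an integrin beta name, and the 5 further matrix genes. One of the beta names, Itgb1bp2, belongs to an integrin-binding protein and not to a receptor chain.

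RNA sequencing was performed on B.END3 (b.end3), an endothelial cell line derived from mouse brain microvessels, in 9 libraries of monolayer cultures. The 3 Ctrl libraries were untreated. In the other groups, cells were incubated for 90 min with 300 µg/mL porfimer sodium, a porphyrin photosensitizer, and exposed to a 635 nm laser at 100 mW/cm2, which together is photodynamic therapy (PDT). The 3 Ep1 libraries received a light dose of 10 J/cm2 and the 3 Ep2 libraries 20 J/cm2. Ctrl therefore differs from both doses in photosensitizer and in light at once, and what each of them does alone cannot be told apart here. The labels give the strain as C57BL/6 and the organism as mouse, although the culture protocol calls the cells rat. All cells are of 1 line, and nothing in the labels states that the libraries of a group came from separate cultures, so the p-values measure only the spread between these libraries, which may be technical.

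Collagen chains fold into triple helices, fibrillar types such as I, III, and V form fibres, and type IV forms the network of the basement membrane, the sheet under endothelial and epithelial cells. Laminins are cross-shaped trimers of an alpha, a beta, and a gamma chain, which nidogen and perlecan tie to the collagen IV network. Each integrin is a pair of an alpha and a beta chain, so that a chain reaches the surface only with a partner, and in brain vessels integrins with the beta1 chain are the main receptors for laminin and collagen.

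Levels are given in FPKM, the fragments counted on a gene divided by gene length and library size, which allows genes to be compared with each other. Each library held between 16240688 and 19509225 fragments on genes, and the spread within each group was larger than counting noise alone gives (chi-square per degree of freedom from 2.7 to 13.79, highest between Ep2 replicates 1 and 3). The labelled cell type was checked against 12 markers of endothelial cells. Of these, 8 were under 1 FPKM in every library, among them Pecam1, Kdr, Tek, Vwf, Cldn5, and Emcn, which was at 0 throughout. Cdh5 was listed at 0.901, 0.864 and 0.807 FPKM in Ctrl, and the marker with the highest level was Flt1 at 6.66, 7.04 and 6.99 FPKM. The list summed to 11.4 to 11.9 FPKM in Ctrl, 11.3 to 13.1 in Ep1, and 14.4 to 15.4 in Ep2. The keratin Krt8 was listed at 628, 658 and 635 FPKM in Ctrl, and the 6 epithelial markers summed to 1029 to 1081 FPKM in Ctrl, 937 to 1041 in Ep1, and 1155 to 1372 in Ep2. The keratins Krt8, Krt18, and Krt19 held most of this sum. Of the other epithelial markers, Epcam was listed at 0.763, 0.777 and 0.898 FPKM in Ctrl, and Cdh1 and Cldn7 were at most at 0.108 FPKM in any library. The data thus go against the endothelial label for most of its defining markers, and the cells are called B.END3 here as in the labels. Marker lists of mural cells, fibroblasts, and neural cells summed to at most 4.51 FPKM in any library. The leukocyte list summed to 33.4 to 36.7 FPKM in Ctrl, 30.1 to 35.1 in Ep1, and 87.5 to 102 in Ep2, where the lysosomal gene Cd68 held most of it and Ptprc, its defining member, was at or near 0. The part of these sums in the results on matrix genes was not tested, and in bulk RNA fewer cells of a type and less RNA per cell cannot be told apart.

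Most matrix genes were not expressed at a substantial level. Of the 88 genes, 33 reached 1 FPKM in 3 or more libraries and could be tested, against 11727 of all 54532 listed genes. Of the 88, 23 had a mean of at least 10 FPKM in some group, 23 had at most 3 fragments in every library, and 8 had none in any library. None of the 88 genes entered the test through 1 group only. A count of 0 allows up to 3 fragments (counting error only). Together the 88 genes took 0.794% to 0.833% of all fragments in Ctrl, 0.737% to 0.788% in Ep1, and 0.896% to 0.909% in Ep2, so that the Ep2 libraries lay above all others and the Ep1 libraries below all Ctrl libraries. Sparc, which encodes a secreted glycoprotein that binds collagen, had the highest level with 244 ± 5.55 FPKM in Ctrl (SD, n = 3), followed by Nid1 with 141 ± 2.98 and Itgb7 with 88.8 ± 4.75. These 3 levels did not overlap between the genes in any group. Below them, Col4a1 (71.0 ± 4.07) and Lamc1 (63.6 ± 0.689) did not overlap in the Ctrl libraries, whereas Col4a2 (52.5 ± 2.73), Itga5 (50.4 ± 1.99), and Lama5 (50.2 ± 2.8) could not be separated by their spread.

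**Figure D1:**
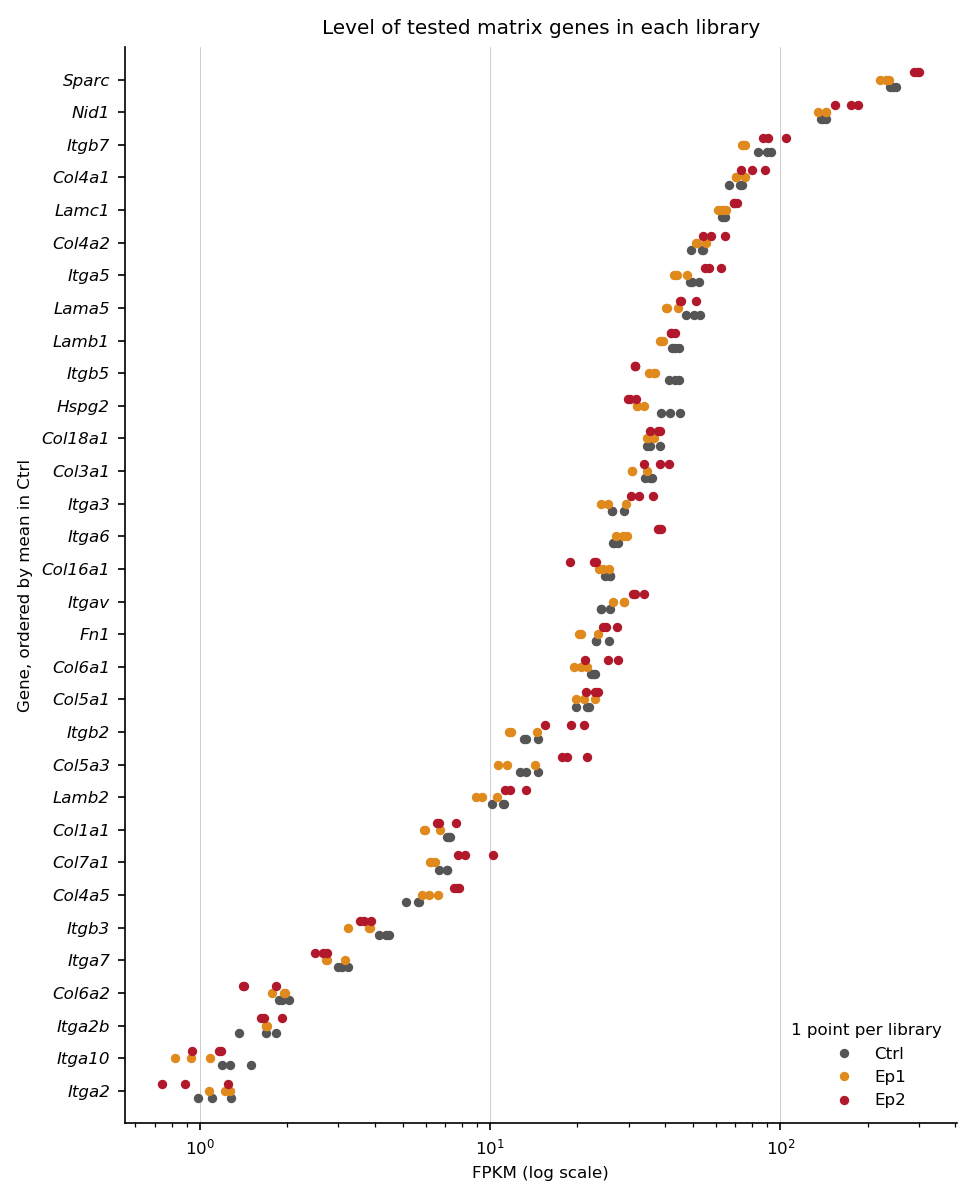
FPKM on a log scale (x axis) of 32 tested genes (y axis, ordered by mean in Ctrl), with 1 point per library coloured by group. Means in Ctrl span from 1.13 FPKM for Itga2 to 244 FPKM for Sparc, and shifts between groups are small beside the differences between genes.

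The chains that assemble with each other were seldom present together. Of 24 known integrin pairs, 3 had both chains at 1 FPKM or more in every library: alphaV beta3, alphaV beta5, and alphaIIb beta3, the last with Itga2b at only 1.62 ± 0.24 FPKM in Ctrl. None of the 12 pairs with beta1 did, because Itgb1 (ENSMUSG00000025809, chr8:128685654-128733200, plus strand, GRCm38) had 0 to 3 fragments per library, or at most 0.040 FPKM. Of its 12 alpha partners, 5 were at 1 FPKM or more in every library (Itga3, Itga5, Itga6, Itga7, and Itgav), with 50.4 ± 1.99 FPKM in Ctrl for the fibronectin receptor chain Itga5, 27.2 ± 1.5 for the laminin receptor chain Itga3, and 26.9 ± 0.542 for the laminin receptor chain Itga6. The other 7 were under 1 FPKM in some library, with 0.519 ± 0.0191 FPKM in Ctrl for Itga1, 1.13 ± 0.148 for Itga2, and 1.32 ± 0.158 for Itga10, and Itga4 was at 0 in every library. The transcript of Itgb1 matched 1 place in the genome, and no other listed gene overlaps it. By way of reference, all of 56 genes that every cell uses had at least 3.42 FPKM in every library. That list was chosen after the values were seen, so it cannot decide whether genes were lost in the upstream counting. The integrin-linked kinase gene Ilk, outside that list, was listed at 0.447 to 1.24 FPKM. Whether Itgb1 transcripts were lost in the upstream counting was not tested.

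The opposite imbalance was found for Itgb7, whose product pairs with alpha4 or alphaE on lymphocytes. Itgb7 was listed at 92.6, 90.3 and 83.5 FPKM in Ctrl, while Itga4 had 0 fragments in every library and Itgae had 0.102, 0.0781 and 0.0588 FPKM. Itgb2, the beta chain of leukocyte integrins, was listed at 13.1, 14.6 and 13.3 FPKM, while its partners Itgal, Itgam, Itgax, and Itgad were at no more than 0.016 FPKM in any library. Itgb4, the partner of Itga6 in hemidesmosomes, was low, with 0.392, 0.357 and 0.422 FPKM in Ctrl.

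**Figure D2:**
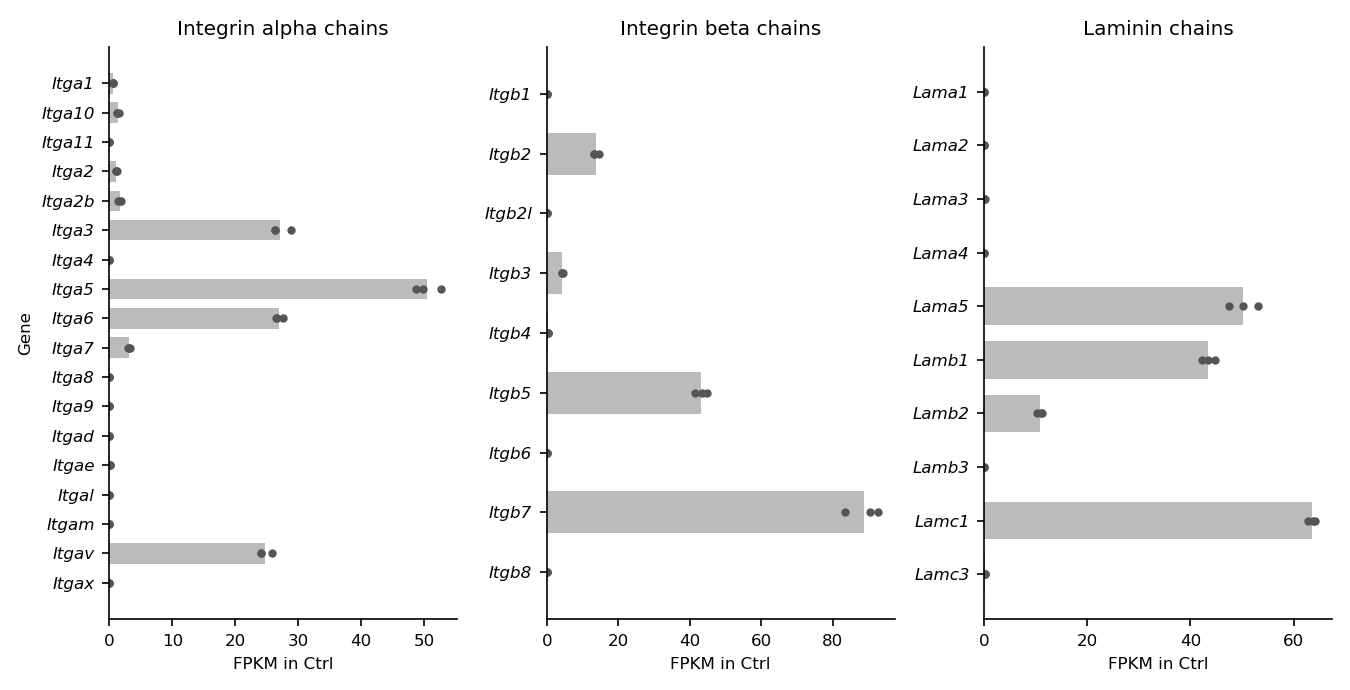
FPKM in Ctrl (x axis, linear from 0) of the integrin alpha chains, integrin beta chains, and laminin chains (y axis), with bars for the mean of 3 libraries and points for single libraries. Itgb1 and Lama4 sit at or near 0 while Itga5, Itgb7, Lama5, and Lamc1 are among the longest bars.

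Among 7 laminin trimers examined, all chains were present for alpha5 beta1 gamma1 and alpha5 beta2 gamma1 only, from Lama5, Lamb1, Lamb2, and Lamc1. Lama4, which encodes an alpha chain typical of vessel walls, had 0 fragments in every library, and Lama1, Lama2, Lama3, and Lamb3 were at most at 0.082 FPKM. Among 7 collagen trimers of unlike chains, only collagen IV of alpha1 and alpha2 had all chains at 1 FPKM or more in every library. Trimers of a single kind of chain were not among the 7. The ratio of Col4a1 to Col4a2, neighbours that share a promoter region and whose listed spans overlap, stayed between 1.34 and 1.39 in all 9 libraries. Of the collagen I chains, Col1a1 was listed at 7.21 ± 0.084 FPKM in Ctrl and Col1a2 at 0.121, 0.107 and 0.117 FPKM. Of the collagen V chains, Col5a1 had 21.0 ± 1.14 FPKM and Col5a3 13.5 ± 0.988, but Col5a2 had at most 1 fragment in any library. For collagen VI, Col6a1 had 22.6 ± 0.353 FPKM, Col6a2 1.94 ± 0.0795, and Col6a3 0.52, 0.457 and 0.441. Of the nidogens, Nid1 was the most abundant gene after Sparc, whereas Nid2 had at most 1 fragment per library.

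The question for both doses was how gene expression in the cells responds to PDT. Expression was compared on log2(FPKM + 1), where 1 is the pseudocount, with limma over all 9 libraries and 11727 tested genes, and a gene is called here when its adjusted p was below 0.05. Fold changes on this scale understate changes of weakly expressed genes. Compared to control, 12 of the 33 tested genes rose in Ep2 and 5 fell, against 23.9% and 29.3% of all tested genes. The genes that rose included the laminin chain Lamc1, the collagens Col4a5, Col5a3, and Col7a1, the integrin chains Itga3, Itga5, Itga6, Itgav, and Itgb2, and Nid1 and Sparc. Those that fell were Col16a1, Hspg2, Itga7, Itgb3, and Itgb5. The median log2 fold change was 0.10 over the 33 genes and -0.03 over all tested genes. Changes were small: with the added threshold of the study, an absolute log2 fold change above 0.6, 1 gene passed, against 9.17% of all tested genes in either direction. The methods of the study name no test for its differentially expressed genes, so these counts cannot be set beside its own.

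Of the calls in Ep2, 70.6% were rises, against 44.9% over all tested genes. After median centring of the libraries these shares were 82.4% and 52.7%, and after adjusting every library for the length and GC content of its genes they were 90.5% (19 genes higher, 2 lower) and 50.1%. The tested matrix genes are long and rich in GC, with a median listed length of 6943 bases and a median GC content of 56.5%, against 3916 bases and 50.1% for all tested genes. Of the 17 calls, 11 held under every alternative in which they could be tested, the omission of each library included and the added fold change threshold aside, among them Col4a5, Col5a3, Hspg2, Itga6, Itgav, Itgb2, Itgb5, Lamc1, Nid1, and Sparc.

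**Figure D3:**
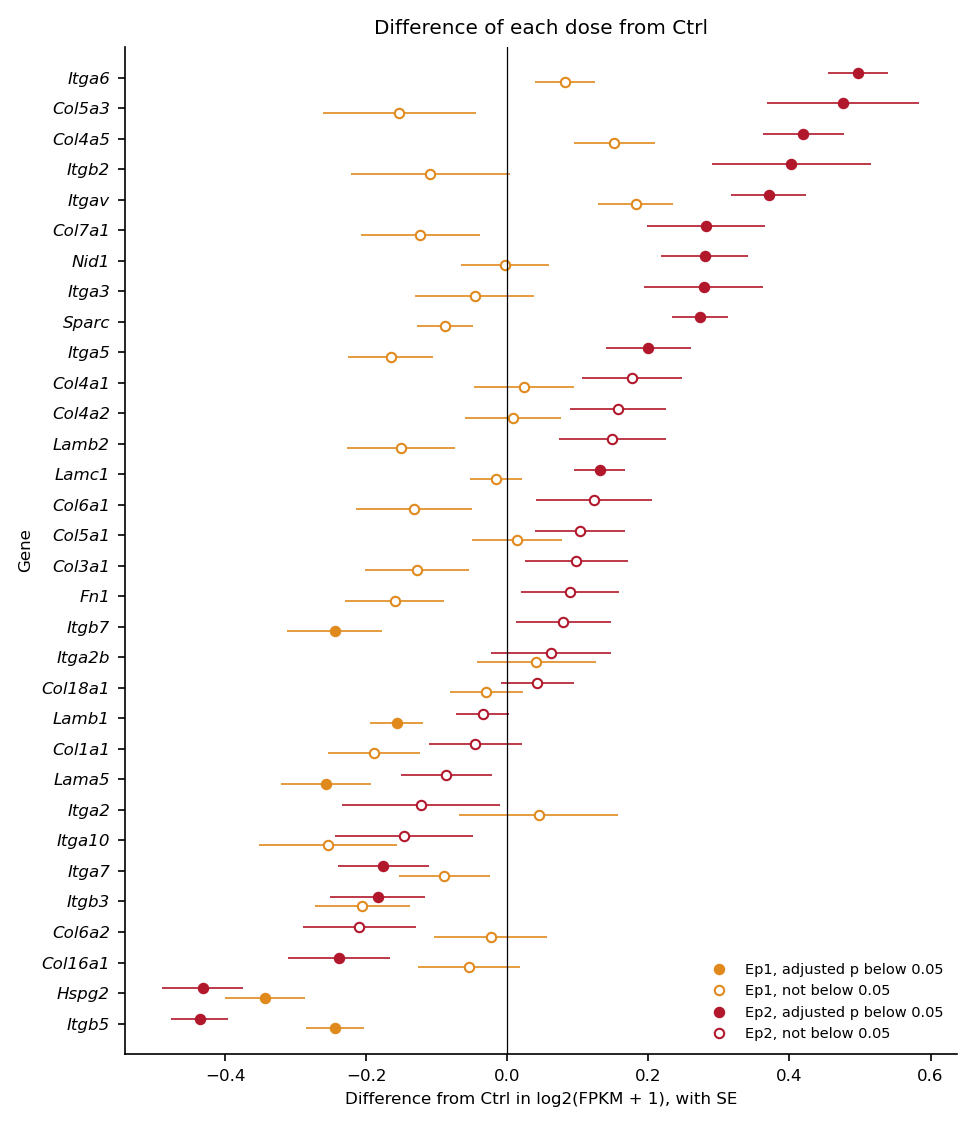
Difference from Ctrl in log2(FPKM + 1) with its SE (x axis) of 32 tested genes (y axis) for Ep1 and Ep2, with filled points where the adjusted p was below 0.05. In Ep2, 11 filled points lie above 0 and 5 below it, and in Ep1 5 lie below 0.

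Among laminins, Lamc1, the gamma chain shared by most laminins, was listed at 64.3, 63.7 and 62.9 FPKM in the Ctrl libraries, 64.8, 62.9 and 61.2 in the Ep1 libraries, and 69.1, 69.0 and 71.2 in the Ep2 libraries. All Ep2 libraries lay above all others, and the rise was small (log2 fold change 0.13, SE 0.04, adjusted p = 0.0127). Lamb2, the beta chain of the second trimer with RNA of all chains, did not pass in Ep2 (log2 fold change 0.15, 95% interval from -0.02 to 0.32, adjusted p = 0.128). Neither did Lama5 (log2 fold change -0.09, 95% interval from -0.23 to 0.06, adjusted p = 0.283) or Lamb1 (log2 fold change -0.03, 95% interval from -0.12 to 0.05, adjusted p = 0.466).

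The linkers of the basement membrane moved apart. Nid1 (ENSMUSG00000005397, chr13:13437551-13512269, plus strand), which bridges laminin and collagen IV, was listed at 140.3, 144 and 138 FPKM in the Ctrl libraries, 144, 135 and 143 in the Ep1 libraries, and 155, 176 and 185 in the Ep2 libraries. All Ep2 libraries were above all others, with the lowest in replicate 1, and Nid1 rose (log2 fold change 0.28, SE 0.06, adjusted p = 0.00413). Perlecan, Hspg2 (ENSMUSG00000028763, chr4:137468769-137570630, plus strand), is the large heparan sulfate proteoglycan of the basement membrane. It was listed at 41.8, 45.0 and 38.7 FPKM in the Ctrl libraries, 33.9, 32.2 and 32.1 in the Ep1 libraries, and 31.9, 29.8 and 30.4 in the Ep2 libraries. The groups did not overlap, and in Ep2 the level fell by 0.43 on a log2 scale (SE 0.06, adjusted p = 0.000216). The ratio of Nid1 to Hspg2 was therefore 3.38 ± 0.187 in Ctrl, 4.3 ± 0.15 in Ep1, and 5.6 ± 0.654 in Ep2. Sparc (ENSMUSG00000018593, chr11:55394500-55423183, minus strand) was listed at 244, 249.6 and 239 FPKM in the Ctrl libraries, 237, 231 and 220.3 in the Ep1 libraries, and 289, 301 and 296 in the Ep2 libraries. The groups did not overlap, and Sparc rose in Ep2 (log2 fold change 0.27, SE 0.04, adjusted p = 0.00039). Fibronectin, Fn1, averaged 24.0 ± 1.48 FPKM (Ctrl), 21.4 ± 1.79 (Ep1), and 25.6 ± 1.52 (Ep2) and did not pass in Ep2 (log2 fold change 0.09, 95% interval from -0.07 to 0.25, adjusted p = 0.312).

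Among the collagens, 3 of 12 tested genes rose in Ep2 and 1 fell, against 23.9% and 29.3% of all tested genes, and 32 of 44 were below the filter. The network-forming chains Col4a1 and Col4a2, the most abundant collagens, did not pass. Col4a1 was listed at 73.8, 72.8 and 66.3 FPKM in the Ctrl libraries, 75.5, 70.4 and 70.6 in the Ep1 libraries, and 88.5, 80.1 and 73.1 in the Ep2 libraries (log2 fold change 0.18, 95% interval from 0.02 to 0.34, adjusted p = 0.0596). Col4a2 gave a log2 fold change of 0.16 in Ep2 with an adjusted p of 0.0782. The highest Col4a1 level in Ep2 was in replicate 1, and its groups overlapped. Col4a5 (ENSMUSG00000031274, chrX:141475385-141689234, plus strand), a collagen IV chain of specialised basement membranes whose partners Col4a3, Col4a4, and Col4a6 were at most at 0.028 FPKM, was listed at 5.63, 5.13 and 5.68 FPKM in the Ctrl libraries, 6.61, 5.81 and 6.17 in the Ep1 libraries, and 7.79, 7.7 and 7.49 in the Ep2 libraries. The groups did not overlap, and Col4a5 rose (log2 fold change 0.42, SE 0.06, adjusted p = 0.000266). Col18a1, whose C-terminal fragment is endostatin, did not pass (log2 fold change 0.04, 95% interval from -0.07 to 0.16, adjusted p = 0.519).

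Of the fibrillar collagens, Col5a3 (ENSMUSG00000004098, chr9:20770050-20815067, minus strand) was listed at 12.6, 14.6 and 13.3 FPKM in the Ctrl libraries, 14.3, 10.7 and 11.4 in the Ep1 libraries, and 21.6, 18.4 and 17.7 in the Ep2 libraries. The Ep2 libraries lay above all others, while Ctrl and Ep1 overlapped, and Col5a3 rose in Ep2 (log2 fold change 0.48, SE 0.11, adjusted p = 0.00496). The fibrillar chains Col3a1 (log2 fold change 0.10, 95% interval from -0.07 to 0.26, adjusted p = 0.289), Col5a1 (log2 fold change 0.10, 95% interval from -0.04 to 0.25, adjusted p = 0.202), and Col1a1 (log2 fold change -0.05, 95% interval from -0.19 to 0.10, adjusted p = 0.588) did not pass. The other 7 fibrillar collagen genes were below the filter. Col7a1, the chain of the anchoring fibrils under epithelia, was listed at 6.66, 7.1 and 7.1 FPKM in the Ctrl libraries, 6.26, 6.21 and 6.44 in the Ep1 libraries, and 10.2, 8.2 and 7.76 in the Ep2 libraries. It rose in Ep2 (log2 fold change 0.28, SE 0.08, adjusted p = 0.0179), with the highest level in Ep2 replicate 1, and the call was lost without Ctrl replicate 1 (adjusted p = 0.0612) and without the filter on low values (adjusted p = 0.0519). Col16a1, a fibril-associated collagen, was listed at 25.9, 26.0 and 24.9 FPKM in the Ctrl libraries, 25.7, 24.4 and 23.7 in the Ep1 libraries, and 22.8, 23.1 and 18.9 in the Ep2 libraries. It fell by 0.24 on the log2 scale, with the lowest level in Ep2 replicate 3, and the call was lost without Ctrl replicate 1 (adjusted p = 0.0561), without Ctrl replicate 2 (adjusted p = 0.0584), without the filter (adjusted p = 0.0552), and after the length and GC correction (adjusted p = 0.177). Col6a1 (log2 fold change 0.12, 95% interval from -0.06 to 0.31, adjusted p = 0.237) and Col6a2 (log2 fold change -0.21, 95% interval from -0.39 to -0.03, adjusted p = 0.051) did not pass.

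Of the 8 tested integrin alpha chains, 4 rose in Ep2 and 1 fell, against the same 23.9% and 29.3%. Itga6 (ENSMUSG00000027111, chr2:71745616-71858416, plus strand), a laminin receptor chain, was listed at 26.5, 27.5 and 26.6 FPKM in the Ctrl libraries, 29.7, 27.1 and 28.8 in the Ep1 libraries, and 38.3, 38.9 and 37.8 in the Ep2 libraries. The Ep2 libraries lay well above all others, and Itga6 rose (log2 fold change 0.50, SE 0.04, adjusted p = 2.05e-05). The listed span of Itga6 overlaps 4 other listed genes, and whether the counting used strand is not given in the sources used here. This limit also holds for other genes called in Ep2 whose spans overlap a listed gene: Itgav, Itga5, Itga7, Lamc1, Col4a5, Col5a3, Col7a1, Nid1, and Hspg2. Itgav (ENSMUSG00000027087, chr2:83724397-83806916, plus strand), the alpha chain of the vitronectin receptors, was listed at 24.0, 24.1 and 25.8 FPKM in the Ctrl libraries, 28.9, 26.5 and 28.8 in the Ep1 libraries, and 31.1, 31.6 and 33.8 in the Ep2 libraries. The groups did not overlap, and Itgav rose in Ep2 (log2 fold change 0.37, SE 0.05, adjusted p = 0.000343).

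The other alpha chains that rose were Itga3 and Itga5. Itga3 was listed at 26.3, 28.9 and 26.3 FPKM in the Ctrl libraries, 29.5, 24.1 and 25.5 in the Ep1 libraries, and 36.5, 32.7 and 30.5 in the Ep2 libraries and rose in Ep2 (log2 fold change 0.28, SE 0.08, adjusted p = 0.0197), with its highest Ep2 level in replicate 1. Itga5 was listed at 49.8, 52.6 and 48.8 FPKM in the Ctrl libraries, 47.7, 42.9 and 43.9 in the Ep1 libraries, and 62.7, 56.6 and 55.0 in the Ep2 libraries and rose less (log2 fold change 0.20, SE 0.06, adjusted p = 0.0194). The call of Itga3 was lost without Ctrl replicate 1 (adjusted p = 0.0633), Ctrl replicate 3 (0.0603), or Ep2 replicate 1 (0.0569), and without the filter (0.0582). That of Itga5 was lost without Ctrl replicate 1 (adjusted p = 0.0577) or Ctrl replicate 3 (0.0628), and without the filter (0.0529). Itga7, a laminin receptor chain known from muscle, averaged 3.11 ± 0.114 FPKM (Ctrl), 2.87 ± 0.249 (Ep1), and 2.64 ± 0.126 (Ep2) and fell (log2 fold change -0.18, adjusted p = 0.0427). Its call was lost without Ctrl replicate 1, 2, or 3, Ep1 replicate 3, or Ep2 replicate 2 or 3 (adjusted p from 0.0563 to 0.129), with only the groups compared (0.0526), without the filter (0.0876), after median centring (0.119), and after the length and GC correction (0.338). The collagen receptor chains Itga2 (log2 fold change -0.12, 95% interval from -0.38 to 0.13, adjusted p = 0.387) and Itga10 (log2 fold change -0.15, 95% interval from -0.37 to 0.07, adjusted p = 0.233) and the platelet chain Itga2b (log2 fold change 0.06, 95% interval from -0.13 to 0.25, adjusted p = 0.563) did not pass.

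Among integrin beta chains, Itgb5 (ENSMUSG00000022817, chr16:33829665-33949338, plus strand), a partner of alphaV, was listed at 43.3, 44.7 and 41.4 FPKM in the Ctrl libraries, 35.1, 36.9 and 36.7 in the Ep1 libraries, and 31.6, 31.7 and 31.6 in the Ep2 libraries. The groups did not overlap and the Ep2 libraries were almost equal to each other. In Ep2, Itgb5 fell by 0.44 on a log2 scale (SE 0.04, adjusted p = 3.16e-05). Both chains of alphaV beta5 thus moved in opposite directions, and the ratio of Itgav to Itgb5 was 0.572 ± 0.0455 in Ctrl, 0.776 ± 0.0531 in Ep1, and 1.02 ± 0.0471 in Ep2, given without a test. Itgb3, the other partner of alphaV in these cells, averaged 4.34 ± 0.17 FPKM (Ctrl), 3.64 ± 0.356 (Ep1), and 3.71 ± 0.165 (Ep2) and fell in Ep2 (log2 fold change -0.18, adjusted p = 0.0427). This call was lost without any one of the Ctrl or Ep2 libraries (adjusted p from 0.0503 to 0.124), without the filter (0.095), after median centring (0.113), and after the length and GC correction (0.108). Itgb2 (ENSMUSG00000000290, chr10:77530252-77565708, plus strand) was listed at 13.1, 14.6 and 13.3 FPKM in the Ctrl libraries, 14.5, 11.6 and 11.8 in the Ep1 libraries, and 15.5, 21.0 and 19.1 in the Ep2 libraries. The Ep2 libraries lay above all others, and Itgb2 rose (log2 fold change 0.40, SE 0.11, adjusted p = 0.0142). Itgb7 (ENSMUSG00000001281, chr15:102215995-102231944, minus strand) was listed at 92.6, 90.3 and 83.5 FPKM in the Ctrl libraries, 75.9, 74.4 and 73.9 in the Ep1 libraries, and 105, 90.7 and 86.9 in the Ep2 libraries and did not pass in Ep2 (log2 fold change 0.08, 95% interval from -0.07 to 0.23, adjusted p = 0.35).

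Promoters are shown for the genes with the largest falls, Hspg2 and Itgb5, and for Col5a3 and Col4a5, which rose. RefSeq promoter sequences (GRCm38.p6, from 250 bases before to 50 bases after the start) matched 62 of the 88 genes by symbol, and Itga6 had no entry. Each sequence is written 5′ to 3′ on the strand of the gene, and capitals mark the GC box, the core motif GGGCGG of Sp-family factors or its reverse complement CCGCCC.

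Hspg2, chr4:137468553-137468852, plus strand: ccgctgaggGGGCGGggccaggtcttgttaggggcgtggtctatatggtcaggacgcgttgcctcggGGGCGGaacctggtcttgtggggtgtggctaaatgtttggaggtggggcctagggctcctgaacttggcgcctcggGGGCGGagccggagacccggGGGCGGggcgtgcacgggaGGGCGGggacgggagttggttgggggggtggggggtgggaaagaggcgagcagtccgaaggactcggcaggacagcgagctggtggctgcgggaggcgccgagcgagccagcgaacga

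Itgb5, chr16:33829415-33829714, plus strand: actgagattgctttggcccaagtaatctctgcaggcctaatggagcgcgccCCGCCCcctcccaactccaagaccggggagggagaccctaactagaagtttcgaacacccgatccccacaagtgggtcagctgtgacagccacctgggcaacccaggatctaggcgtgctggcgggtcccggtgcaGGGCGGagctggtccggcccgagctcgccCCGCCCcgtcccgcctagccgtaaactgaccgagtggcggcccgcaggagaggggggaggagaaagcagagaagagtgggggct

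Col5a3, chr9:20815018-20815317, minus strand: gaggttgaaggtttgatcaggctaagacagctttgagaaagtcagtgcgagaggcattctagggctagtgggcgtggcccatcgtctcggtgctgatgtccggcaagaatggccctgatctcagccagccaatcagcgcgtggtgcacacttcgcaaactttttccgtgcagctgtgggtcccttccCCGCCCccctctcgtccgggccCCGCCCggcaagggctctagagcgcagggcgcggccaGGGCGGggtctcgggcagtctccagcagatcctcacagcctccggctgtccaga

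Col4a5, chrX:141475169-141475468, plus strand: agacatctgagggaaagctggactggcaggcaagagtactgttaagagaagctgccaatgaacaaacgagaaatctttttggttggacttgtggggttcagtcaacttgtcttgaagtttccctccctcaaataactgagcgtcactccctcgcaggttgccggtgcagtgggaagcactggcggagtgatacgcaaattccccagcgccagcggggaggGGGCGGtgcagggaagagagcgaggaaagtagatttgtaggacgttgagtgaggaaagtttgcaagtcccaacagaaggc

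The window held 5 GC boxes for Hspg2, 3 each for Itgb5 and Col5a3, and 1 for Col4a5. Of 25 tested genes with an entry, 18 had a GC box on either strand, against 35.7% of all 32851 promoters of this length. It was found in 7 of 8 genes called higher in Ep2, in 3 of 3 called lower, and in 8 of 14 not called. The AP-1 motif TGANTCA, searched on both strands, was found in 1 of the 25, Col6a1, against 7.8% of all promoters. The 32851 promoters were not limited to genes tested here, so these shares are of unlike sets. The share among all tested genes is not given here. These matches describe the sequence only.

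At the lower dose fewer genes were called. Compared to control, 1 of the 33 genes rose in Ep1 and 5 fell, against 6.32% and 4.97% of all tested genes, and even the largest change among them was under the added fold change threshold, which 0.793% of all tested genes passed. The median log2 fold change was -0.09 over the 33 genes and -0.01 over all tested genes. Hspg2 (log2 fold change -0.34, adjusted p = 0.0105) and Itgb5 (log2 fold change -0.24, adjusted p = 0.0105) fell, as did Lama5 (log2 fold change -0.26, adjusted p = 0.035), Lamb1 (log2 fold change -0.16, adjusted p = 0.0319), and Itgb7 (log2 fold change -0.24, adjusted p = 0.0474). Lama5 was listed at 50.3, 53.0 and 47.4 FPKM in the Ctrl libraries, 44.5, 40.4 and 40.7 in the Ep1 libraries, and 51.2, 45.6 and 45.1 in the Ep2 libraries. Lamb1 was listed at 43.5, 44.9 and 42.2 FPKM in the Ctrl libraries, 39.5, 38.4 and 38.8 in the Ep1 libraries, and 41.9, 42.1 and 43.3 in the Ep2 libraries. For Lama5, Lamb1, and Itgb7 every Ep1 library lay below every Ctrl library, whereas the Ep2 libraries overlapped with Ctrl.

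None of the 6 calls in Ep1 held under the omission of every library. The number of genes called lower was 1 without Ctrl replicate 2 or without Ep1 replicate 3, and 2 without Ctrl replicate 1, Ep1 replicate 1, Ep1 replicate 2, or Ep2 replicate 2. Hspg2 was lost only without Ep1 replicate 3 (adjusted p = 0.0514) and Itgb5 only without Ctrl replicate 2 (adjusted p = 0.0549). The calls of Lama5, Lamb1, and Itgb7 were each lost without any one of these 6 libraries, with adjusted p from 0.0502 to 0.156. Without the filter all 3 were lost as well, with adjusted p of 0.104 for Lama5, 0.0746 for Lamb1, and 0.133 for Itgb7. Lamb1 was also lost with the replicate number as a block (adjusted p = 0.0558) and Itgb7 after the length and GC correction (adjusted p = 0.0852).

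Between the doses, 18 of the 33 genes were higher in Ep2 than in Ep1 and 1, Itgb5, was lower (log2 fold change -0.19, SE 0.04, adjusted p = 0.00443), against 18.8% and 25.2% of all tested genes. Only Col5a3 passed the added fold change threshold (log2 fold change 0.63, SE 0.11, adjusted p = 0.00149), against 5.9% of all tested genes. The median log2 fold change was 0.17 over the 33 genes and -0.015 over all tested genes. Over all tested genes, 42.8% of calls were higher in Ep2, and this share was 55.5% after median centring and 49.8% after the length and GC correction. For the matrix genes it was 94.7%, 95.7%, and 96.0%. This comparison and those with Ctrl share libraries, so their results are not independent of each other. The smallest adjusted p-values were those of Itga6 (log2 fold change 0.41, adjusted p = 8.28e-05) and Sparc (log2 fold change 0.36, adjusted p = 0.000124), followed by Itga5 (log2 fold change 0.37, adjusted p = 0.00114). Genes that had not passed in Ep2 compared to control but were higher than in Ep1 were Itgb7 (log2 fold change 0.32, adjusted p = 0.004), Lamb2 (log2 fold change 0.30, adjusted p = 0.0108), Lamb1 (log2 fold change 0.12, adjusted p = 0.0256), Fn1 (log2 fold change 0.25, adjusted p = 0.0171), Col3a1 (log2 fold change 0.23, adjusted p = 0.032), and Col6a1 (log2 fold change 0.25, adjusted p = 0.0311). Of the 19 calls, 14 held under every alternative in which they could be tested, the added fold change threshold aside. Those lost were Col3a1, Col6a1, Fn1, Itgav, and Lamb1, each without Ep1 replicate 2 and without Ep2 replicate 3 (adjusted p from 0.0525 to 0.105), and, apart from Itgav, also without Ep1 replicate 3. Col3a1, Col6a1, and Lamb1 were also lost without Ep2 replicate 2. Without the filter, Col3a1 (adjusted p = 0.0866), Col6a1 (0.0861), and Fn1 (0.0505) were lost. Col3a1 and Col6a1 were lost too with only the groups compared (adjusted p = 0.064 and 0.0663) and with the replicate number as a block (adjusted p = 0.0548 and 0.0534).

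Collagen chains depend on enzymes that hydroxylate, fold, cut, and cross-link them, and a list of 23 such genes was examined, of which 20 were tested. In Ep2, 7 rose and 8 fell compared to control, with a median log2 fold change of -0.10, against 23.9% and 29.3% of all tested genes. In Ep1 0 rose and 3 fell, against 6.32% and 4.97%. The number of falls in Ep2 was 5 after the length and GC correction, and that in Ep1 was 0 after it and without Ctrl replicate 1, Ctrl replicate 2, or any one of the Ep1 libraries. Between the doses, 7 were higher in Ep2 than in Ep1 and 7 lower, against 18.8% and 25.2%. Plod2, a lysyl hydroxylase that prepares collagen cross-links, was listed at 15.8, 17.1 and 19.9 FPKM in the Ctrl libraries, 22.5, 19.6 and 20.3 in the Ep1 libraries, and 34.3, 29.6 and 29.4 in the Ep2 libraries and rose in Ep2 (log2 fold change 0.79, adjusted p = 9.77e-05). Loxl2, an extracellular lysyl oxidase, was listed at 30.8, 31.1 and 31.3 FPKM in the Ctrl libraries, 36.5, 29.99 and 31.2 in the Ep1 libraries, and 45.1, 44.8 and 49.4 in the Ep2 libraries and rose as well (log2 fold change 0.56, adjusted p = 0.000149). The Ep2 libraries of both lay above all others. Bmp1, the procollagen C-proteinase, averaged 24.0 ± 0.576 FPKM (Ctrl), 20.5 ± 0.487 (Ep1), and 17.4 ± 1.14 (Ep2) and fell (log2 fold change -0.45, adjusted p = 9.62e-05), and Adamts14, a procollagen N-proteinase, averaged 9.57 ± 0.251 FPKM (Ctrl), 7.93 ± 0.278 (Ep1), and 6.21 ± 0.664 (Ep2) and fell (log2 fold change -0.56, adjusted p = 0.000133). The larger changes of the prolyl 4-hydroxylase genes, named after their values were seen, went both ways: P4ha1 (log2 fold change 0.87, adjusted p = 0.000487) and P4ha2 (log2 fold change 0.88, adjusted p = 0.00185) rose and P4ha3 (log2 fold change -0.98, adjusted p = 0.00109) fell. Lox, Loxl1, and Adamts2 were at most at 0.056 FPKM in any library.

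**Figure D4:**
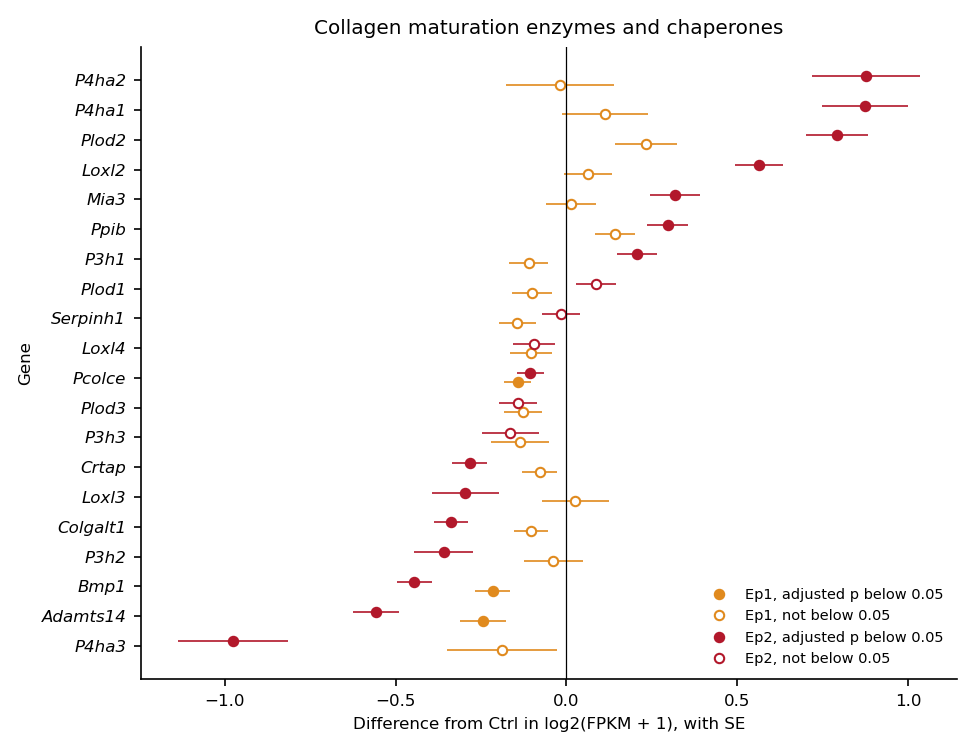
Difference from Ctrl in log2(FPKM + 1) with its SE (x axis) of the 20 tested collagen maturation genes (y axis) for Ep1 and Ep2, with filled points where the adjusted p was below 0.05. P4ha2, P4ha1, Plod2, and Loxl2 lie farthest above 0 in Ep2 and P4ha3 farthest below.

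Focal adhesions link integrins to actin, and 20 of 24 listed genes were tested. In Ep2, 8 rose and 4 fell (median log2 fold change 0.06), and in Ep1 1 rose and 2 fell. Lims2, among the 8, was at most at 0.838 FPKM in Ctrl and 0.773 in Ep1, and at least at 1.49 in Ep2. It thus entered the test through the Ep2 libraries only, so its calls as higher in Ep2 than in Ctrl and Ep1 depend on the filter. Vinculin, Vcl, was listed at 32.9, 32.4 and 31.5 FPKM in the Ctrl libraries, 36.2, 34.6 and 34.9 in the Ep1 libraries, and 56.4, 53.4 and 51.8 in the Ep2 libraries and rose in Ep2 (log2 fold change 0.72, adjusted p = 4.03e-06), and so did the integrin activator kindlin, Fermt2 (log2 fold change 0.63, adjusted p = 1.21e-05). The adaptor Bcar1 (log2 fold change -0.42, adjusted p = 0.000177) and the actin cross-linker Actn4 (log2 fold change -0.26, adjusted p = 0.000636) fell. Of 31 other matrix proteins and matrix receptors, 19 were tested, and in Ep2 6 rose and 7 fell (median log2 fold change -0.09), while in Ep1 2 rose and 6 fell. The proteoglycan Sdc4 (log2 fold change 0.53, adjusted p = 7.08e-05) and the collagen receptor Ddr2 (log2 fold change 0.32, adjusted p = 0.000313) rose, and Sdc1 (log2 fold change -0.35, adjusted p = 8.58e-05) and the elastic fibre gene Emilin1 (log2 fold change -0.43, adjusted p = 0.000109) fell. After the length and GC correction, 3 of these receptors and matrix proteins fell in Ep2. Between the doses, 8 focal adhesion genes and 6 of the other matrix genes were higher in Ep2 than in Ep1, and 1 and 3 were lower. The counts in Ep1 rested on single libraries: without Ctrl replicate 2, 0 focal adhesion genes rose and 1 fell, and 0 of the other matrix genes rose and 2 fell, and without Ep1 replicate 3 these numbers were 0, 1, 0, and 0. The counts of both lists stand against the shares of all tested genes given above, 23.9% and 29.3% in Ep2, 6.32% and 4.97% in Ep1, and 18.8% and 25.2% between the doses.

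The 55 matrix genes below the filter were not tested on FPKM. Of these, 18 had at least 10 fragments in at least 3 libraries and entered limma's voom on the recovered fragments, as an alternative. Col11a2, Col15a1, Col20a1, Col23a1, Col24a1, and Lamc3 were called higher in Ep2 than in Ctrl by voom, and Col27a1, Itga1, and Itgb4 lower. These 6 and 3 of 18 stand against 25.2% higher and 24.7% lower over all 14112 genes in voom. In Ep1 against Ctrl, Col11a2 was called higher (voom log2 fold change 1.28, adjusted p = 0.00628) and 0 genes lower, against 6.55% and 7.57%. Between the doses, 6 were higher in Ep2 than in Ep1 (Col12a1, Col15a1, Col20a1, Col23a1, Col24a1, and Lamc3) and 2 lower (Col27a1 and Itga1), against 22.0% and 19.7%. Col20a1 passed the limit of 10 fragments through Ep2 (19, 11 and 21), with 10, 4 and 7 in Ctrl and 5, 2 and 1 in Ep1. Col27a1 passed it through Ep1 (10, 19 and 11), with 8, 14 and 8 in Ctrl and 6, 0 and 4 in Ep2. The calls of these genes therefore depend on the filter. Levels of all genes called by voom in this set were low throughout. The transmembrane collagen Col23a1 was listed at 0.19, 0.187 and 0.141 FPKM in the Ctrl libraries, 0.132, 0.125 and 0.15 in the Ep1 libraries, and 0.283, 0.335 and 0.409 in the Ep2 libraries. The laminin chain Lamc3 was listed at 0.196, 0.0839 and 0.133 FPKM in the Ctrl libraries, 0.169, 0.166 and 0.168 in the Ep1 libraries, and 0.319, 0.298 and 0.237 in the Ep2 libraries. For both, every Ep2 library lay above every library of the other groups.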

How the data were processed

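The deposited FPKM values cover 54532 genes in 9 libraries. Per the labels, Ctrl was untreated and Ep1 and Ep2 received PDT, and libraries were grouped by their titles. The authors sequenced read pairs, and the submitters' processing notes name Bowtie 0.12.2 and mm8, whereas the methods name GRCm39. The listed positions overlap GRCm38 for 99.9% of 36526 genes compared and GRCm39 for 12.4%, so positions refer to GRCm38. The counting tool and its strand setting are not given in the sources used here. Scaled by gene length, 100.0% of values were whole numbers of fragments to within 0.05, and these fragments per gene were used as depth.

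The 11727 genes that reached 1 FPKM in 3 or more libraries were fitted as log2(FPKM + 1) with limma 3.58.1 in R 4.3.3 (variance trend, robust estimation, all libraries, no covariate), with Benjamini-Hochberg adjustment over all tested genes per comparison. The pseudocount pulls low genes towards 0. The procedure was tested on simulated data. Alternatives were median centring, no filter, FPKM of at least 5, the replicate number as a block, 0.1 as the pseudocount, fitting just the groups compared, voom on fragments (14112 genes), a length and GC correction (11600 genes, 98.9% of those tested), a minimum log2 fold change of 0.6, and the omission of each library. One transcript per matrix gene was aligned to GRCm39 with minimap2 2.31 to look for copies: all 88 matched 1 locus over at least 30% of the transcript, and 53 share their span with another listed gene. Sums and figures were made with matplotlib 3.10.9, scipy 1.17.1, pandas 2.3.3, and numpy 2.4.6 under Python 3.11.15.

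The matrix genes and the lists were chosen with earlier results of these data known. Genes were named if their mean was at least 10 FPKM in a group, if they were called, if they are partner chains of a named chain, or if they are fibrillar or basement membrane collagens or nidogens, and per further list the 2 genes with the smallest adjusted p in each direction in Ep2 against Ctrl. One gene enters the counts but is not reported here. The imaging, flow cytometry, and qPCR data of the study were not used here.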

Additional observations from a re-analysis of the deposited data

Results flagged for a closer look

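For 13 genes the differences of both doses from Ctrl had opposite signs and the doses differed from each other (limma, adjusted p below 0.05), and 9 of them were called against Ctrl at one of the doses. The share of all tested genes with this pattern is not given here, so the count does not set the matrix genes apart. The log2 difference of Ep2 from Ep1 was 0.63 for Col5a3 (-0.15 in Ep1 and 0.48 in Ep2 against Ctrl, adjusted p = 0.00149), 0.51 for Itgb2 (-0.11 and 0.40, adjusted p = 0.00562), and 0.40 for Col7a1 (-0.12 and 0.28, adjusted p = 0.00385). It was 0.37 for Itga5 (-0.17 and 0.20, adjusted p = 0.00114), 0.36 for Sparc (-0.09 and 0.27, adjusted p = 0.000124), and 0.32 for Itga3 (-0.05 and 0.28, adjusted p = 0.012). It was 0.32 for Itgb7 (-0.24 and 0.08, adjusted p = 0.004), 0.28 for Nid1 (-0.003 and 0.28, adjusted p = 0.0051), and 0.15 for Lamc1 (-0.02 and 0.13, adjusted p = 0.00908). The 4 genes called at neither dose were Lamb2 (-0.15 and 0.15), Fn1 (-0.16 and 0.09), Col6a1 (-0.13 and 0.12), and Col3a1 (-0.13 and 0.10). Of the 13, Itgb7 alone was called in Ep1 against Ctrl, so for the other genes a fall in Ep1 was not shown. For Itga3, Lamc1, and Nid1 the sign in Ep1 changed under at least 1 alternative.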

How the results depend on the processing

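No called fold change reversed its direction under any alternative: over all called genes and alternatives, the minimum fold change aside, 620 results kept their side of the threshold and 89 lost it. Of the tested genes that were not called, the fold change took the other sign under at least 1 alternative for 11 of 27 in Ep1 against Ctrl, 4 of 16 in Ep2 against Ctrl (Col1a1, Itga2b, Lama5, and Lamb1), and 2 of 14 in Ep2 against Ep1. In Ep1 against Ctrl, the 1 gene higher became 0 without a filter, 2 with only the groups compared, 3 with voom, 0 with the minimum fold change, and 0 to 2 when a library was left out. The 5 lower became 2 without a filter, 9 with voom, 0 with the minimum fold change, and 1 to 6 when a library was left out. In Ep2 against Ctrl, the 12 higher became 19 with the length and GC correction, 21 with voom, 1 with the minimum fold change, and 9 to 14 when a library was left out. The 5 lower became 2 with the length and GC correction, 3 with median centring, 2 without a filter, 3 with the stricter filter, 9 with voom, 0 with the minimum fold change, and 2 to 5 when a library was left out. In Ep2 against Ep1, the 18 higher became 28 with voom, 1 with the minimum fold change, and 13 to 20 when a library was left out, and the 1 lower became 2 with the stricter filter, 3 with voom, 0 with the minimum fold change, and 1 or 2 when a library was left out. Voom tested 51 of the 88 genes, and leaving out a library leaves fewer samples. Itga7 and Itgb3, lower in Ep2 than in Ctrl, were under 5 FPKM in every library and so were not tested with the stricter filter. The cause of the other shifts was not tested.

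Same-numbered libraries did not deviate together (r from -0.056 to 0.074 over 9 pairs), so the numbers are not treated as pairs. With the number as a replicate block, 15 genes were higher and 5 lower in Ep2 than in Ctrl, 19 higher and 2 lower in Ep2 than in Ep1, and 1 higher and 4 lower in Ep1 than in Ctrl. The shares of all tested genes under this block are not given here, so these counts cannot be set against them.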
